A study of Mus musculus with 2 samples.

Results

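The genes described here encode the insulin-like growth factor (IGF) ligand Igf1, the receptors Igf1r and Igf2r, and the binding proteins Igfbp2 to Igfbp7. They were chosen by symbol as a list of 9 genes of the IGF system, and all 9 were found among the 23183 genes of the deposited table. RNA of neonatal mouse epidermis was sequenced after poly(A) selection in 1 library of genotype C57BL/6 Foxn1L19M/L19M, homozygous for the L19M allele of Foxn1, and 1 library of genotype C57BL/6 wild type (WT). The stated question was how keratinocyte function differs with this allele. The sources used here give neither the number of pups behind a library nor their age in days or sex. With so few libraries no test could be run, no p-value is given, and each difference is between these libraries.

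IGF ligands are secreted growth signals made largely by mesenchymal cells of skin, and keratinocytes respond to them through the receptor tyrosine kinase encoded by Igf1r. Binding proteins hold the ligands outside the cell, extend their lifetime and keep them from the receptor until proteases release them. In skin the pathway is known for supporting keratinocyte growth and the growing phase of the hair follicle. Levels are in FPKM, fragments scaled by transcript length and library total, so genes can be set side by side.

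The promoters of Igfbp2 and Igfbp5 are shown because these genes are neighbours with opposite differences between the libraries, and that of Igfbp3 because it had the highest log2 ratio of the 9 genes. Igfbp2 (plus strand) and Igfbp5 (minus strand) lie on chromosome 1 with their ends 5594 bases apart, and Igfbp3 lies on the minus strand of chromosome 11, 3545 bases from Igfbp1. Each sequence is 300 bases on the strand of the gene, with 250 bases before its start, from RefSeq on GRCm38.p6 (the mm10 assembly). Capitals mark GC boxes, spelled GGGCGG, and TATA-type motifs, both searched on either strand. A TATA-type motif was TATAAA, its variant TATATA, which can overlap it, or the form TATTTA. The windows are chr1:72824230-72824529 for Igfbp2, chr1:72874816-72875115 for Igfbp5 and chr11:7213874-7214173 for Igfbp3.
Igfbp2: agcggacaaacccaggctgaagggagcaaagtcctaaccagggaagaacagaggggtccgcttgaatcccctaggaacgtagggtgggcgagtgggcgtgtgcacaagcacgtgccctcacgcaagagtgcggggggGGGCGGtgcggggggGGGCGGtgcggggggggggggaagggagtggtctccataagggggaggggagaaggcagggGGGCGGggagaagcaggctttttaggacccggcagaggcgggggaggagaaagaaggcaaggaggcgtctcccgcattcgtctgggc
Igfbp5: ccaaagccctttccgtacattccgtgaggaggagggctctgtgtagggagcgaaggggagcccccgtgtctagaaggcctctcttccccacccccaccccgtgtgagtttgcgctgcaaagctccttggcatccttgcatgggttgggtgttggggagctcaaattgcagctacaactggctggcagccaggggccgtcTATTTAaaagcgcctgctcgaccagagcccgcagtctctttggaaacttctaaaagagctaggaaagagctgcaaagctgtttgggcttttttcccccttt
Igfbp3: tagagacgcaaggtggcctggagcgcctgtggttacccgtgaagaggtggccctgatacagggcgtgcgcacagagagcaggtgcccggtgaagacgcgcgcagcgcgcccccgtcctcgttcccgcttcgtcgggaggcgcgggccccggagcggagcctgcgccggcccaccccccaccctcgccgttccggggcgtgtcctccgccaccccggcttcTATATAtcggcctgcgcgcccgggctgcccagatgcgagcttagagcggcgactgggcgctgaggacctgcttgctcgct

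All 9 genes matched a RefSeq promoter, and for 8 of them a promoter lay within 50 bases of the start used by the table, with Igf1 as the exception. The Igfbp2 window held 3 GC boxes, 18 CpG dinucleotides and no TATA-type motif. The Igfbp5 window held a TATA-type motif that began 51 bases before the start, 10 CpG dinucleotides and no GC box. In the Igfbp3 window the TATA-type motif began 30 bases before the start, beside 37 CpG dinucleotides and no GC box. Of the 8 windows, those of Igfbp3, Igfbp4, Igfbp5 and Igfbp6 held a TATA-type motif anywhere in the window, against 25.8% of 32851 RefSeq promoter windows. It began 28 bases before the start in Igfbp4 and 148 bases before it in Igfbp6. Those of Igf1r, Igf2r, Igfbp2 and Igfbp7 held a GC box, against 35.7% of the windows. These matches describe letters in a window and are no measure of binding.

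None of the 9 IGF genes differed by 2-fold, with 5 higher in L19M and 4 lower. A gene counted as measured at a mean of at least 1 FPKM, which all 9 reached, and its log2 ratio of L19M over WT was taken after 1 FPKM had been added to both values. Adding 1 shrinks the difference of genes with low FPKM. Over 11841 measured genes, 0.532% passed 2-fold as higher in L19M and 1.71% as lower. The log2 ratios of the 9 ran between -0.53 (Igfbp5) and 0.58 (Igfbp3), with a median of 0.19, beside a median of 0.0049 over all measured genes. Igfbp3, Igfbp6, Igfbp2, Igf2r and Igf1r were the higher genes, and Igfbp5, Igfbp4, Igfbp7 and Igf1 the lower ones. In bulk RNA, fewer cells of a type and less RNA per cell cannot be told apart.

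Depth was estimated from the steps of low FPKM values at 19169000 fragments for L19M and 14138000 for WT. From it come estimated fragments per gene and exact 95% intervals, which cover counting error only and hold nothing of the spread between animals. Counting intervals of the plain FPKM ratio lay above 1 for 5 of the 9 genes and below 1 for 3. Among 11802 measured genes with an estimate, the interval lay above 1 for 23.1% and below 1 for 24.5%, so an interval clear of 1 was common at this depth. Keratins of the basal layer were abundant, with Krt14 at 3850 FPKM in L19M and 3408 FPKM in WT. Foxn1 itself had 5.44 FPKM in L19M and 3.74 FPKM in WT, which does not check an allele named for an amino acid change.

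**Figure D1:**
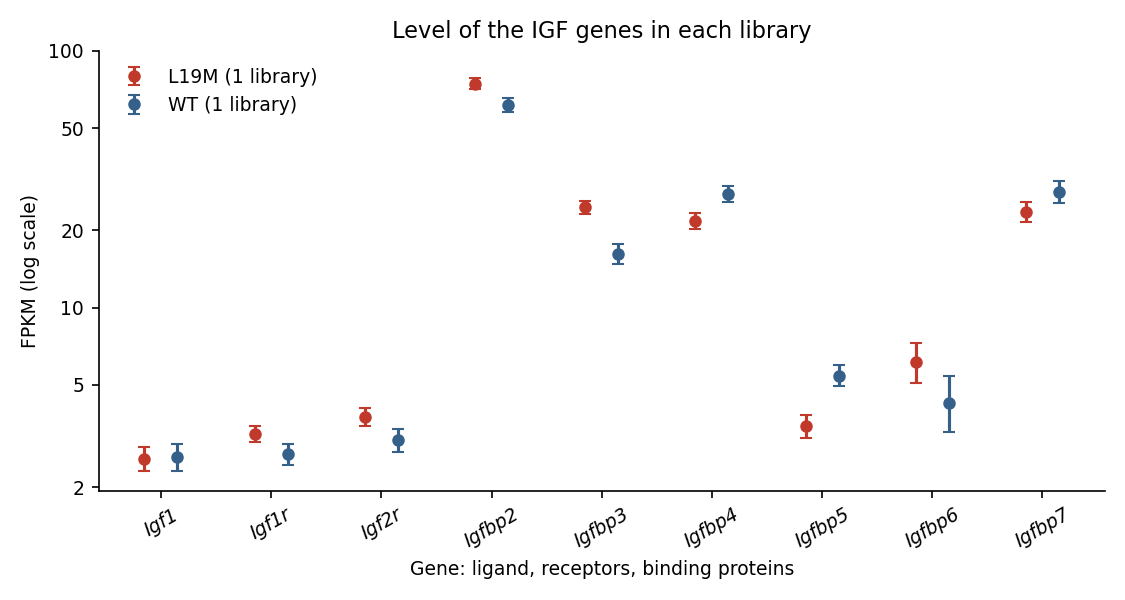
FPKM of the ligand, receptor and binding protein genes on a log axis, with points for the L19M library (red) and the WT library (blue) and bars for exact 95% Poisson intervals of the estimated fragments. Igfbp2 is highest in both libraries at 74.3 FPKM in L19M and 61.5 FPKM in WT, and Igf1 lowest at 2.58 FPKM in L19M and 2.62 FPKM in WT.

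The ligand gene Igf1 had nearly the same level in both libraries. Igf1 (Entrez 16000, chromosome 10, 87859056 to 87937047 on the plus strand, mm10) had 2.58 FPKM in L19M and 2.62 FPKM in WT. These rest on 355 estimated fragments in L19M and 266 in WT, and the ratio was 0.985 (interval 0.838 to 1.16). That interval holds ratios on both sides of equality. Igf2, the fetal and neonatal ligand, was far more abundant, at 211 FPKM in L19M and 182 FPKM in WT. Its level was 81.9 times that of Igf1 in L19M and 69.6 times in WT.

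Both receptor genes were slightly higher in L19M. Igf1r (Entrez 16001, plus strand of chromosome 7, 67952257 to 68233667), the signalling receptor, had 3.22 FPKM in L19M and 2.69 FPKM in WT. Its ratio was 1.20, and the counting interval ran between 1.06 and 1.35. Insr, the insulin receptor that pairs with it in hybrid receptors, had 2.02 FPKM in L19M and 1.96 FPKM in WT, a ratio of 1.03 (0.875 to 1.22). The level of Igf1r over that of Insr was 1.59 in L19M and 1.37 in WT, and the counting interval of the change in that quotient, 0.947 to 1.43, held 1.

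Igf2r (Entrez 16004, minus strand of chromosome 17, 12682406 to 12769706) removes IGF2 from the cell surface and carries lysosomal enzymes tagged with mannose 6-phosphate. It had 3.75 FPKM in L19M and 3.04 FPKM in WT, a ratio of 1.23 (interval 1.08 to 1.41). The level of Igf1r over that of Igf2r was 0.857 in L19M and 0.883 in WT, and the counting interval of the change in that quotient, 0.813 to 1.16, held 1. Igf2r is imprinted in mouse, and Airn, a noncoding RNA read from the opposite strand within it, silences the paternal copy. Airn, named after its overlap was seen, had 3.88 FPKM in L19M and 1.83 FPKM in WT, from 147 estimated fragments in L19M and 51 in WT. Its ratio was 2.12 (interval 1.54 to 2.99), and its log2 ratio of 0.78 was under 2-fold with the pseudocount. The sources used here do not say whether counting used the strand, so fragments from Igf2r and Airn cannot be told apart where they overlap.

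Of the 6 binding protein genes, 3 were higher in L19M and 3 lower, and their summed level was close in both libraries. The sum was 154 FPKM in L19M and 143 FPKM in WT, a ratio of 1.07. Without Igfbp2 the sum was 79.5 FPKM in L19M and 81.7 FPKM in WT, a ratio of 0.973. Single genes had plain ratios between 0.634 and 1.52.

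Igfbp3, a main carrier of IGFs in blood and a product of basal keratinocytes in human epidermis, stood furthest above equality. Igfbp3 (Entrez 16009, chromosome 11, 7206091 to 7213923) had 24.6 FPKM in L19M and 16.1 FPKM in WT, from 1053 estimated fragments in L19M and 511 in WT. Its plain ratio was 1.52 (interval 1.37 to 1.69), and 2.01% of measured genes had a log2 ratio at least as high. The authors' deposited table gives a fold of 1.503 for it, from quantile-normalized values.

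Igfbp6, which prefers IGF2 over IGF1, had the next log2 ratio, 0.44, on the fewest fragments of the 9 genes. Igfbp6 (Entrez 16012, chromosome 15, 102144186 to 102149512 on the plus strand) had 6.13 FPKM in L19M and 4.24 FPKM in WT. With 127 fragments in L19M and 65 in WT, its ratio of 1.45 had the widest interval of the 9, 1.06 to 1.98. Igfbp2 (Entrez 16008, chromosome 1, 72824480 to 72852471), a binding protein abundant in fetal tissue, had 74.3 FPKM in L19M and 61.5 FPKM in WT. Its ratio was 1.21 (interval 1.11 to 1.31), from 1596 estimated fragments in L19M and 977 in WT.

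Igfbp5, Igfbp4 and Igfbp7 were lower in L19M. Igfbp5 (Entrez 16011, chromosome 1, 72858065 to 72874865), a binding protein that adheres to extracellular matrix, had 3.45 FPKM in L19M and 5.44 FPKM in WT. Its plain ratio was 0.634 with an interval of 0.551 to 0.730, and 4.93% of measured genes had a log2 ratio at least as low. Igfbp4 (Entrez 16010, plus strand of chromosome 11, 99041260 to 99052643), which restrains IGF action until it is cleaved by the protease Pappa, had 21.8 FPKM in L19M and 27.7 FPKM in WT. Its ratio was 0.786 (interval 0.709 to 0.870). Igfbp7 (Entrez 29817, minus strand of chromosome 5, 77349240 to 77408045), a weak IGF binder typical of vessel walls, had 23.6 FPKM in L19M and 28.2 FPKM in WT. Its ratio was 0.836 (interval 0.729 to 0.957). The Igfbp7 row overlaps the end of Polr2b on the opposite strand, which had 13.7 FPKM in L19M and 16.6 FPKM in WT, so fragments in the overlap are uncertain too.

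**Figure D2:**
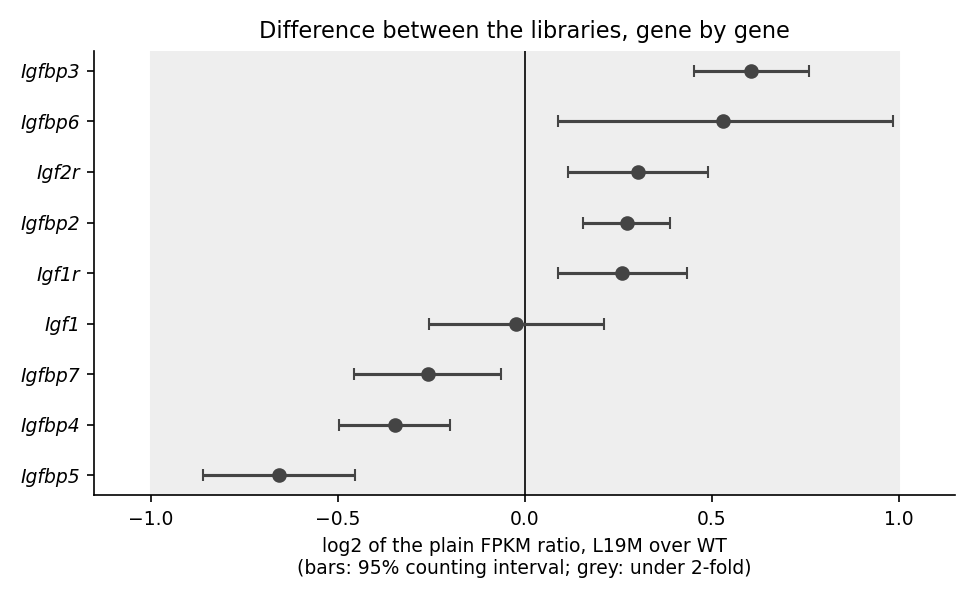
Log2 of the plain FPKM ratio of L19M over WT for each of the 9 genes, ordered by value, with exact 95% counting intervals as bars and the range under 2-fold in grey. Igfbp3 (ratio 1.52) and Igfbp5 (ratio 0.634) lie furthest from equality, and the interval of Igf1 alone holds it.

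By the plain ratio with a 1.5-fold threshold, chosen after the values were seen, Igfbp3 was the 1 gene higher and Igfbp5 the 1 gene lower. That threshold took in 3.95% of measured genes as higher in L19M and 6.27% as lower. Quotients of genes within a library are free of how the libraries were scaled. The level of Igfbp3 over that of Igfbp5 was 7.13 in L19M and 2.97 in WT, a 2.40-fold difference with a counting interval of 2.01 to 2.87. This pair was taken because it is the furthest apart. For the chromosome 1 neighbours, the level of Igfbp2 over that of Igfbp5 was 21.6 in L19M and 11.3 in WT, a 1.91-fold difference (1.62 to 2.24). As these neighbours differed in opposite directions, their quotient had to differ between the libraries.

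The order of levels was led by Igfbp2 in both libraries, while Igfbp3 had rank 2 in L19M and rank 4 in WT, and Igfbp5 rank 7 in L19M and rank 5 in WT. In L19M Igfbp2 was followed by Igfbp3, Igfbp7 and Igfbp4, whose neighbouring counting intervals overlapped, at 24.6, 23.6 and 21.8 FPKM. Then came Igfbp6 at 6.13 FPKM, and Igf2r, Igfbp5 and Igf1r between 3.75 and 3.22 FPKM with overlapping intervals, and Igf1 below them. In WT Igfbp7 and Igfbp4 (28.2 and 27.7 FPKM, overlapping) followed Igfbp2, and Igfbp3 stood below them at 16.1 FPKM with an interval clear of both neighbours. Igfbp5, Igfbp6, Igf2r, Igf1r and Igf1 came next in WT, each overlapping the next. Igfbp2 made up 48.3% of the summed binding protein FPKM in L19M and 42.9% in WT, and Igfbp3 15.98% in L19M and 11.3% in WT. Igfbp4 made up 14.1% in L19M and 19.3% in WT, Igfbp7 15.3% in L19M and 19.7% in WT, and Igfbp5 2.24% in L19M and 3.80% in WT.

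The rest of the IGF family was sparse in epidermis apart from Igf2 and Insr. Of 8 such genes 2 were measured. Igfbp1, Ins1 and Ins2 were listed at 0 in both libraries. Igfals, the acid-labile subunit that binds Igfbp3 and Igfbp5 complexes in blood, had 0.164 FPKM in L19M and 0.779 FPKM in WT, from 6 estimated fragments in L19M and 21 in WT, below the floor for a measured gene. Among proteases that cleave binding proteins and their inhibitors, 5 of 12 were measured and none passed 2-fold, with 2 above 0, 3 below and a median log2 ratio of -0.05. Over all 12 entries, 8 were above 0 and 3 below. Pappa2, which cleaves IGFBP3 and IGFBP5 in humans, had 1.76 FPKM in L19M and 0.455 FPKM in WT. Its plain ratio was 3.88 (2.88 to 5.27) from 283 estimated fragments in L19M and 54 in WT, and its log2 ratio with the pseudocount was 0.93. Pappa2 counted as measured only through its L19M value, as its WT value lay under 1 FPKM. Ctsd (-0.17), Adam12 (-0.14) and Adam9 (0.06) had the next log2 ratios. Pappa, the protease of IGFBP4, was not measured, at 0.298 FPKM in L19M and 0.137 FPKM in WT, a ratio of 2.18 (1.31 to 3.76). Also below the floor were Mmp3, with 25 estimated fragments in L19M and 3 in WT (ratio 6.16, interval 1.88 to 31.9), and Mmp9, with 18 in L19M and 2 in WT (ratio 6.64, interval 1.59 to 59.0). Stc1 and Stc2 had ratios of 1.23 and 1.72 with intervals that held 1.

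No gene of the signalling lists passed 2-fold in either direction. Of 32 measured genes of IRS, PI3K, AKT and mTOR signalling, 24 had log2 ratios above 0 and 8 below, with a median of 0.06. The adaptor Irs2 (4.97 FPKM in L19M, 3.10 FPKM in WT), the receptor-binding inhibitor Grb10 (6.95 FPKM in L19M, 4.60 FPKM in WT), the RAS activator Sos1 (5.03 FPKM in L19M, 3.52 FPKM in WT) and the transcription factor Foxo4 (19.8 FPKM in L19M, 14.9 FPKM in WT) stood furthest from 0. The other FOXO factor genes lay below 0. Foxo1 had the lowest log2 ratio of the list, -0.28, at 6.04 FPKM in L19M and 7.57 FPKM in WT (ratio 0.798, interval 0.712 to 0.896). Foxo3 had a ratio of 0.939 with an interval, 0.839 to 1.05, that held 1. Of 10 genes of RAS and ERK signalling, 5 were above 0 and 5 below, with a median of -0.01. Mapk3 (-0.20), Araf (-0.11) and Map2k2 (0.11) were furthest from 0.

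Genes reported as targets of FOXO factors, which IGF signalling holds out of the nucleus, all had log2 ratios above 0. Their 9 measured members had a median log2 ratio of 0.25, beside 50.8% of all measured genes above 0. A counting interval above 1 was seen for 5 of these 9, beside 23.1% of all measured genes with an estimate. The intervals of the other target genes held 1. Irs2 and Insr, 2 of the 9, are also in other lists. Irs2 had the largest log2 ratio (0.54), followed by Ccng2 (12.2 FPKM in L19M, 8.86 FPKM in WT), Txnip (221 FPKM in L19M, 167 FPKM in WT) and Sesn1 (14.7 FPKM in L19M, 11.0 FPKM in WT). Of 9 genes of the growth hormone axis, which drives Igf1 in liver, 8 were measured, all with log2 ratios above 0 and a median of 0.27. A counting interval above 1 was seen for 4 of these 8, beside the same 23.1%. The gene not measured, the prolactin receptor gene Prlr, was below the floor and lower, at 0.370 FPKM in L19M and 0.830 FPKM in WT, a ratio of 0.446 (0.343 to 0.582). Some feedback inhibitors led the list, with Socs3 at 4.43 FPKM in L19M and 2.58 FPKM in WT, and Socs2 at 7.82 FPKM in L19M and 4.92 FPKM in WT. Socs1 was next, at 4.20 FPKM in L19M and 3.07 FPKM in WT, with a ratio of 1.37 whose interval, 0.945 to 2.04, held 1. Jak2 followed at 7.86 FPKM in L19M and 6.29 FPKM in WT. Cish, another feedback inhibitor, had the smallest log2 ratio of the 8 measured genes, 0.02. Its level was 13.4 FPKM in L19M and 13.3 FPKM in WT, a ratio of 1.01 (0.885 to 1.16).

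Genes of mannose 6-phosphate sorting, the other task of Igf2r, had 11 log2 ratios below 0 and 6 above among 17 measured, with a median of -0.13. The lysosomal proteases Ctsl (116 FPKM in L19M, 160 FPKM in WT) and Ctsb (42.8 FPKM in L19M, 59.3 FPKM in WT) had ratios of 0.724 and 0.722. Nagpa, which uncovers the tag, had 4.58 FPKM in L19M and 6.46 FPKM in WT, and Gaa 3.92 FPKM in L19M and 5.01 FPKM in WT. Across all 7 lists, 54 of 80 measured genes were above 0, with a median of 0.05.

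**Figure D3:**
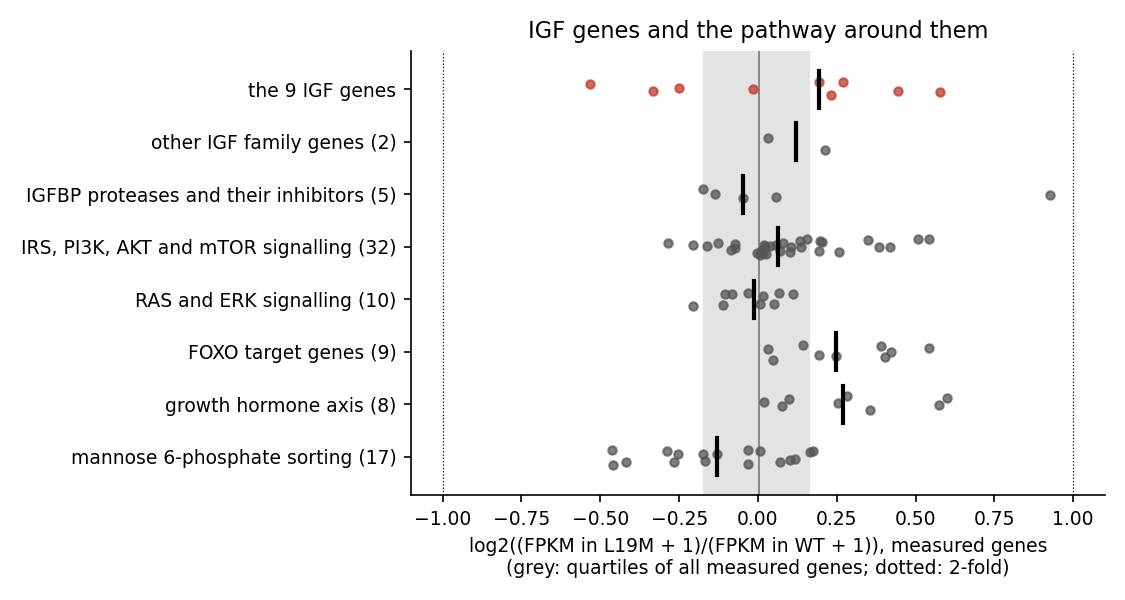
Log2 ratio with a pseudocount of 1 FPKM for each measured gene (points) of the 9 IGF genes (red) and of 7 lists around them (grey), with the number of measured genes in brackets and each list's median as a black line. No point passes 2-fold (dotted lines), and Pappa2, which counted as measured only through its L19M value, comes nearest at 0.93. The grey band spans the quartiles of all measured genes, -0.17 to 0.16.

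Marker lists of skin cell types lay on both sides of 0. Basal keratinocyte markers had 8 of 9 measured genes above 0, and summed to 8324 FPKM in L19M and 7709 FPKM in WT, with Trp63 (0.56) and Itga6 (0.45) furthest. Suprabasal markers had 6 of 7 below 0, and summed to 46324 FPKM in L19M and 54656 FPKM in WT, with Krtdap at -0.42 and Lor at -0.34. Hair shaft and inner root sheath markers had 11 of 12 measured genes at least 2-fold lower, and summed to 207 FPKM in L19M and 1011 FPKM in WT. Krt33a (-3.33) and Krt31 (-3.32) had the smallest log2 ratios of that list. In the outer root sheath and hair germ list 5 of 9 were above 0, led by Shh (0.51) and Gli1 (0.49). The sums were 1004 FPKM in L19M and 1107 FPKM in WT, most of it from Krt17, at 909 FPKM in L19M and 1025 FPKM in WT.

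Among other cells, fibroblast markers had 8 of 10 above 0 and summed to 842 FPKM in L19M and 792 FPKM in WT, with Lum at -0.64 and Pdgfrb at 0.60. Blood endothelial markers had 9 of 9 measured genes above 0 and summed to 36.0 FPKM in L19M and 23.9 FPKM in WT, led by Plvap (0.82) and Esam (0.68). Pericyte and smooth muscle markers had 5 of 7 below 0, led by Tagln (-0.53) and Rgs5 (-0.45), and summed to 37.5 FPKM in L19M and 43.7 FPKM in WT. Macrophage markers had 5 of 8 above 0 with sums of 131 FPKM in L19M and 115 FPKM in WT, led by Lyz2 (0.70) and C1qb (0.44). All 8 measured adipocyte markers were below 0, 2 of them by 2-fold (Retn at -1.85 and Plin1 at -1.02), with sums of 316 FPKM in L19M and 409 FPKM in WT.

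Markers of the dermal papilla, a known source of Igf1, had 3 of 4 measured genes above 0, with Sox18 (0.37) and Wif1 (0.34) leading. Over all 8 entries of that list, 4 were above 0 and 4 below, and the sums were 22.8 FPKM in L19M and 18.5 FPKM in WT. The 2 measured lymphatic markers split, with Lyve1 at 0.73 and Ccl21a at -0.70. Over all 4 lymphatic entries, 3 were above 0 and 1, Ccl21a, below, and the sums were 9.17 FPKM in L19M and 10.7 FPKM in WT. Skeletal muscle markers had 7 of 8 above 0 and 1 at least 2-fold higher, Actc1 (1.37), with Myh3 (0.74) next and sums of 235 FPKM in L19M and 201 FPKM in WT. Of all these markers only Lep was listed at 0, and in L19M alone. Flg is not analysed here. The part of any of these cell types in the differences of the IGF genes was not tested.

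**Figure D4:**
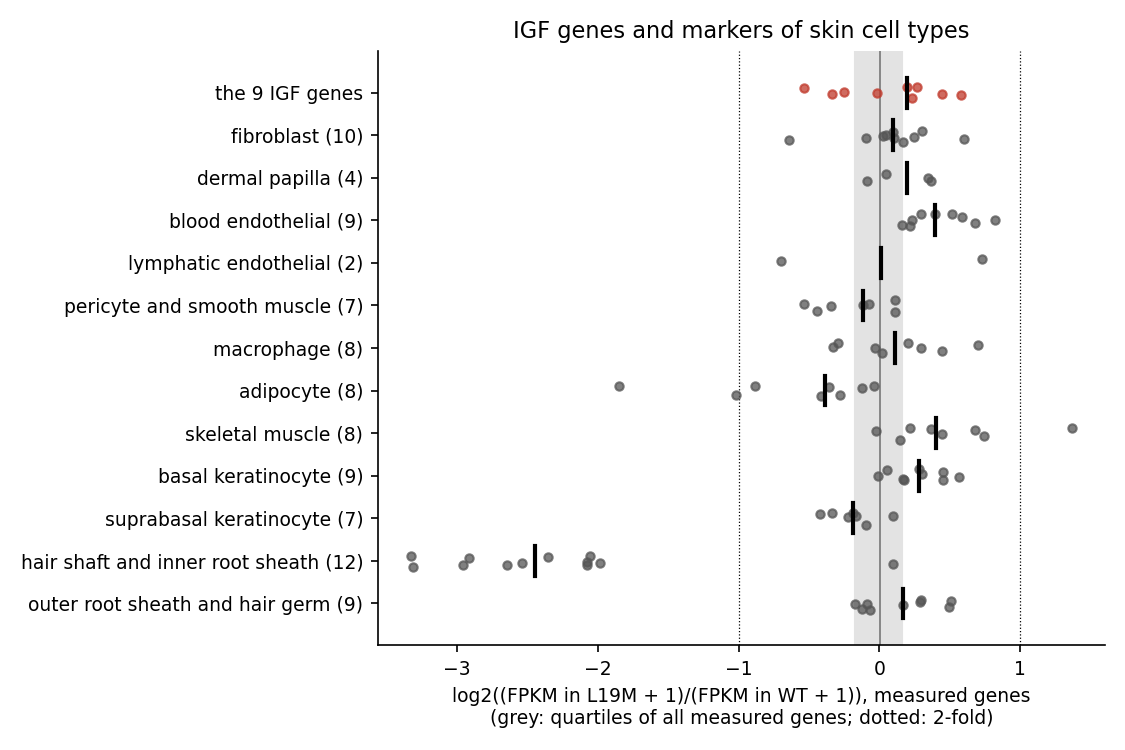
Log2 ratio with a pseudocount of 1 FPKM for each measured gene (points) of the 9 IGF genes (red) and of 12 marker lists (grey), with medians as black lines and the quartiles of all measured genes as a grey band. The IGF genes lie within -0.53 to 0.58, while hair shaft and inner root sheath markers have a median of -2.45.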

How the data were processed

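Poly(A)-selected RNA of neonatal epidermis was sequenced with a directional kit, per the labels' protocols, as 1 L19M and 1 WT library. The FPKM values used here were computed by the authors and deposited per gene as raw data. The column headers do not name this unit, which was read from low values that scale with transcript length. The submitters' processing notes name Cufflinks, edgeR and R 3.5.1 without roles, and the sources used here name no aligner. A second pair of columns that the authors deposited holds log2 values after quantile normalization, per the file headers and information sheet, which lay within 0.0476 of log2(FPKM + 1). The deposited fold is the authors' ratio of L19M over WT from those values. The information sheet names mm10 and the processing notes GRCm39. Of 21982 symbols shared with RefSeq on GRCm38, 99.1% had an end within 5000 bases of RefSeq's, and coordinates, counted from 1, are therefore called mm10.

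Low FPKM values of transcripts of at least 1000 bases stepped as whole fragments over transcript length less a constant (207 bases in L19M, 204 in WT). With values of up to 20 fragments, 83.6% in L19M and 84.0% in WT were within 0.1 of a whole number. This relation gave fragments for each gene whose transcript has 300 bases or more, using the 1 transcript length each row gives, so genes with several isoforms are approximate. Intervals are exact Poisson for levels, Clopper-Pearson for ratios and conditional exact for quotients of genes, at 95%. They cover counting error only, and PCR copies are counted as if they were separate molecules. A count of 0 still has an upper bound, which for Igfbp1 was 0.147 FPKM in L19M and 0.198 FPKM in WT. The procedure was tested on simulated libraries. The tools were Python 3.11.15, numpy 2.4.6, pandas 2.3.3, scipy 1.17.1 and matplotlib 3.10.9.

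All 9 IGF genes are named, with the 4 measured genes of largest absolute log2 ratio in each of 7 pathway lists and 2 in each of 12 marker lists; others are named as context, and 1 gene that this rule names is not reported here. Genes and lists were chosen with earlier results of these data known. With 2 libraries likeness of pattern is 1 ratio, so no gene is named by it. Alternatives were another pseudocount, other filters, other scalings and another fold.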

Additional observations from a re-analysis of the deposited data

How the results depend on the processing

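The 9 IGF genes stayed under 2-fold in both directions with a pseudocount of 0.1 FPKM, without a filter and with a floor of 5 FPKM. They also did so after rescaling to TPM, after median scaling and with the authors' normalized values. With a 1.5-fold threshold and the pseudocount of 1 FPKM none passed, but Igfbp3 lay close under it at a log2 ratio of 0.577. The authors' fold for Igfbp3 was 1.503. With the pseudocount of 0.1 FPKM its log2 ratio was 0.603, and that of Igfbp5 was -0.643. In the plain FPKM ratio at 1.5-fold, added after the data were seen, 1 of the 9 genes was higher and 1 lower. Across the settings that give a value per gene, 8 of the 9 genes kept their sign. Igf1 did not, with log2 ratios between -0.02 and 0.03, and no value moved beyond the half-width of its counting interval. The median log2 ratio of measured genes moved by less than 0.1 under every setting. Counts over all measured genes differed: 120 were higher in L19M and 297 lower with the pseudocount of 0.1, beside 63 and 203 in the main setting. With the floor of 5 FPKM, 41 were higher and 107 lower. At 1.5-fold, 236 were higher and 482 lower, and in the plain ratio 468 and 743. Of pathway list genes 1 was higher with the pseudocount of 0.1, 1 after rescaling to TPM, 2 at 1.5-fold and 5 in the plain ratio. No paired analysis was possible because each genotype has 1 library, and no library could be left out. Depth limits Igfbp6 most among the 9 genes, with 127 estimated fragments in L19M and 65 in WT on a transcript of 1289 bases.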

Other observations

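Genes named for binding Igf2 RNA, listed after the data were seen, were higher in L19M and under 2-fold. Igf2bp2 had 19.999 FPKM in L19M and 11.8 FPKM in WT, a ratio of 1.69 with a counting interval of 1.54 to 1.86. Igf2bp1 had 2.33 FPKM in L19M and 1.25 FPKM in WT, a ratio of 1.86 (1.53 to 2.27). Igf2bp3 had 19.8 FPKM in L19M and 16.03 FPKM in WT, a ratio of 1.23 (1.14 to 1.34). Their log2 ratios with the pseudocount were 0.71, 0.56 and 0.29.

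Among secreted proteins that share the amino-terminal domain of the binding proteins, also listed after the data were seen, the measured genes lay nearer to equality. Of 11 matched genes 6 were measured, with log2 ratios between -0.14 and 0.12. Cyr61 (Ccn1) had 10.1 FPKM in L19M and 9.89 FPKM in WT, and Ctgf (Ccn2), a matricellular growth regulator, had 3.42 FPKM in L19M and 3.86 FPKM in WT. Htra1, a secreted serine protease, had 26.5 FPKM in L19M and 27.4 FPKM in WT. Genes under the floor for a measured gene reached further from equality. Kazald1 had 0.445 FPKM in L19M and 1.14 FPKM in WT, from 10 estimated fragments in L19M and 19 in WT. Its log2 ratio was -0.57, and its plain ratio 0.389 (interval 0.162 to 0.880). Wisp2 had a log2 ratio of -0.30 from 2 estimated fragments in L19M and 7 in WT, and the interval of its plain ratio, 0.0214 to 1.11, held 1.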
